A study of Gallus gallus with 15 samples.

Results

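The insulin-like growth factor (IGF) system was described in chicken abdominal adipose tissue through all probe sets of the array whose platform annotation names 1 of 10 genes, namely the ligands IGF1 and IGF2, the receptors IGF1R and IGF2R and the binding proteins IGFBP1, IGFBP2, IGFBP3, IGFBP4, IGFBP5 and IGFBP7. These genes were represented by 12 of the 38439 probe sets and were 10 of the 13009 genes named on the array. The tissue came from 15 male broilers of the ISA915 line at 16 to 17 days of age, 5 fed, 5 fasted for 5 h and 5 insulin-neutralized. Insulin-neutralized birds kept their feed and were given porcine anti-insulin serum by injection at 0, 2 and 4 h. Fed and fasted birds were given normal porcine serum, so that all birds carried a foreign serum. RNA of each bird was hybridised to an Affymetrix GeneChip Chicken Genome Array, which measures a transcript with sets of short oligonucleotides.

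IGF1 and IGF2 are small secreted proteins related to insulin that drive growth, survival and differentiation of many cell types, among them the precursors of adipocytes. They act through IGF1R, a receptor tyrosine kinase closely related to the insulin receptor, and the IGF binding proteins hold them in blood and in the matrix, prolonging or limiting their access to it. In mammals, liver under the control of growth hormone supplies most circulating IGF1, and insulin lowers the output of IGFBP1 by the liver.

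The deposited values were on the log2 scale after background correction, normalization and summary with GCRMA. No value was under 2.18, called the floor here. Probe sets with values below 3 on at least 5 arrays were removed, and 18612 remained. Groups were compared with limma in 1 model of the 15 arrays, and a change was called at a Benjamini-Hochberg adjusted p under 0.05 over all probe sets kept. Every adjusted p below comes from this test unless another setting is named. Intensities of different probe sets are not on a common scale, so levels were compared only between birds. Of 9 adipocyte markers, 8 passed the filter, and GPAM, with a mean of 2.23, was removed as low. Among those kept, FABP4, a fatty acid binding protein, had a mean log2 value of 16.31. ADIPOQ, the adipokine adiponectin, had a mean of 12.96. In tissue RNA, fewer cells of a type and less RNA per cell cannot be told apart. On 2 grounds birds stood apart. Fed birds 4 and 5 had the lowest mean correlation with the other arrays, 0.955 and 0.958 against 0.963 to 0.977. Fasted bird 5 and insulin-neutralized bird 1 had by far the highest levels of 6 liver genes, described with IGFBP1.

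Transcripts of the ligands were at the floor or carried no information. The probe set for IGF1 was at 2.18 in 14 birds and at 2.20 in fasted bird 3. For IGF2, 2 of its 3 probe sets were also within 0.061 of the floor in all 15 birds, and their highest values were 2.19 in fasted bird 5 and 2.24 in fasted bird 1. These 3 probe sets were removed by the filter, and no difference between groups could be measured with them. The other probe set for IGF2 passed the filter but read 4.83 on every array, exactly its own lowest value on 14 of them. A probe set that reads a constant above the floor has no measured variation, and its log2 fold change of 2.8e-05 in fasted vs. fed chickens describes no birds. A reading at the floor gives no level, and it does not show that either ligand was absent.

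Of the 12 probe sets, 8 passed the filter, 1 for each of 8 genes, and 7 of these varied between birds. In fasted vs. fed chickens 1 of the 8 was called, IGFBP4, which was lower in fasted birds. Over all probe sets tested, 9.64% were called in this comparison, 4.69% of the probe sets lower and 4.95% higher in fasted birds. At an unadjusted p under 0.05 the count was also 1 of the 8, against 24.9% overall. In insulin-neutralized vs. fed chickens 0 of the 8 were called, where the share over all probe sets was 0.494%, split into 0.269% higher and 0.226% lower, and 0 of the 8 had an unadjusted p under 0.05, against 17.5% overall. In insulin-neutralized vs. fasted chickens 0 of the 8 were called against 4.06% over all probe sets (1.54% higher, 2.53% lower), and 1 of the 8, again IGFBP4, had an unadjusted p under 0.05, against 17.9% overall. With 8 probe sets, these counts are close to what the shares over the array give. In none of the 3 comparisons did the values of a member separate the groups without overlap. Of all probe sets, 8.39%, 4.04% and 8.34% did so in fasted vs. fed, insulin-neutralized vs. fed and insulin-neutralized vs. fasted chickens. For 8 members, counts of 0 are close to these shares too. The median log2 fold change of the 8 members was -0.0019 in fasted vs. fed chickens, 0.0083 in insulin-neutralized vs. fed chickens and 0.022 in insulin-neutralized vs. fasted chickens. The same medians over all probe sets tested were -0.036, -0.018 and 0.023. The counts and medians of the 8 members include the constant probe set for IGF2, which could not be called. It entered the medians at 2.8e-05, 0 and -2.8e-05.

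**Figure D1:**
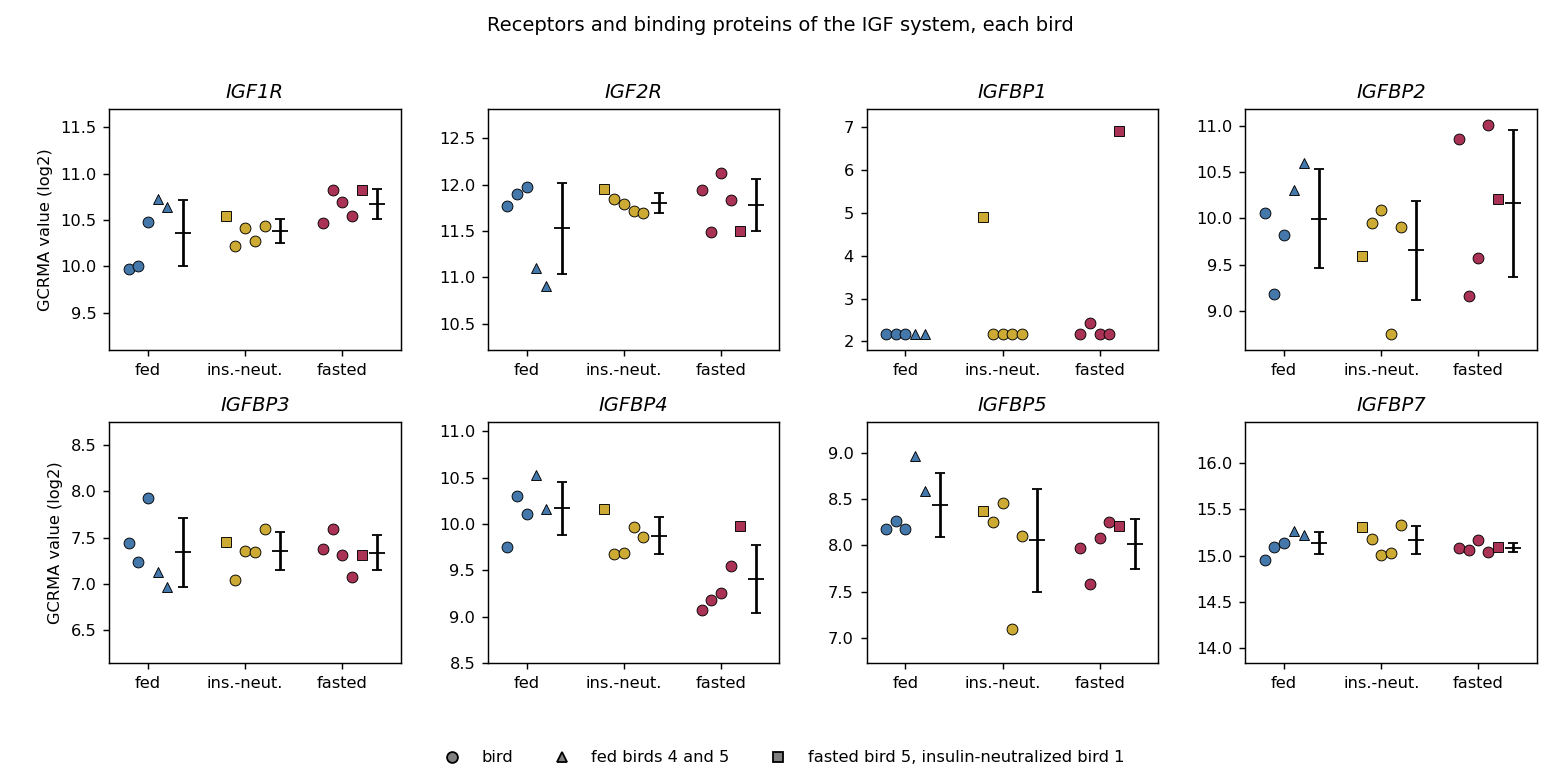
GCRMA values on the log2 scale of the receptors and binding proteins in each of the 5 fed, 5 insulin-neutralized and 5 fasted birds, in order of bird number within a group, with the group mean ± SD to the right of the points (not drawn for IGFBP1, which was at or near the floor in 13 birds). All panels but that of IGFBP1 span the same range of log2 units. Triangles are fed birds 4 and 5, squares are fasted bird 5 and insulin-neutralized bird 1, and the fasted points for IGFBP4 lie below all fed points except for fasted bird 5 at 9.98, which is above fed bird 1 at 9.75.

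IGFBP4 binds both IGFs and is known mainly as an inhibitor of their action, which is released when the metalloprotease PAPPA cleaves it. Its probe set read 9.75, 10.30, 10.10, 10.53 and 10.16 in fed birds 1 to 5. It read 9.07, 9.18, 9.26, 9.54 and 9.98 in fasted birds 1 to 5. Fasted birds 1 to 4 were below every fed bird. Fasted bird 5 was above fed bird 1 only, so that the groups overlapped through fasted bird 5 and fed bird 1. The mean was 10.17 ± 0.29 (SD, n = 5) in fed and 9.41 ± 0.37 (SD, n = 5) in fasted birds, a 1.70-fold lower level after fasting (log2 fold change -0.76, SE 0.18, 95% interval -1.15 to -0.38, limma adjusted p = 0.0167).

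Insulin-neutralized birds lay between these groups for IGFBP4. They read 10.17, 9.68, 9.69, 9.97 and 9.86 in birds 1 to 5, with a mean of 9.87 ± 0.20 (SD, n = 5). All 5 fell within the range set by the lowest fasted and the highest fed bird, bird 1 at the fed mean and birds 2 and 3 the closest to the fasted birds. With the fed mean set to 0 and the fasted mean to 1, the insulin-neutralized mean lay at 0.386 and the single birds between 0.0019 and 0.640. The difference from fed birds was -0.29 on the log2 scale (SE 0.18, 95% interval -0.68 to 0.092, limma adjusted p = 0.406). The difference from fasted birds was 0.47 (SE 0.18, 95% interval 0.082 to 0.85), with an unadjusted p of 0.0211 and an adjusted p of 0.181 by limma. Neither was called. The interval against fed birds held 0 and overlapped the interval of fasted vs. fed birds, -1.15 to -0.38. That against fasted birds lay above 0 before adjustment for multiple tests. The 2 comparisons share the insulin-neutralized arrays and are not independent of each other.

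The call for IGFBP4 in fasted vs. fed chickens depended on fed birds 4 and 5 and on the samples in the model. Without fed birds 4 and 5 the log2 fold change was -0.64 (SE 0.20), and the adjusted p of 0.0723 no longer passed. With only the fed and fasted arrays in the model the value stayed at -0.76 and the adjusted p was 0.0582. Without fasted bird 5 and insulin-neutralized bird 1, which held liver transcripts, the log2 fold change was -0.91 and the adjusted p 0.00459, and without these as well as fed birds 4 and 5 they were -0.79 and 0.0164. Over the 27 alternatives tried the log2 fold change ran from -0.91 to -0.64 and the adjusted p from 0.00406 to 0.0723, and no single bird left out ended the call.

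**Figure D2:**
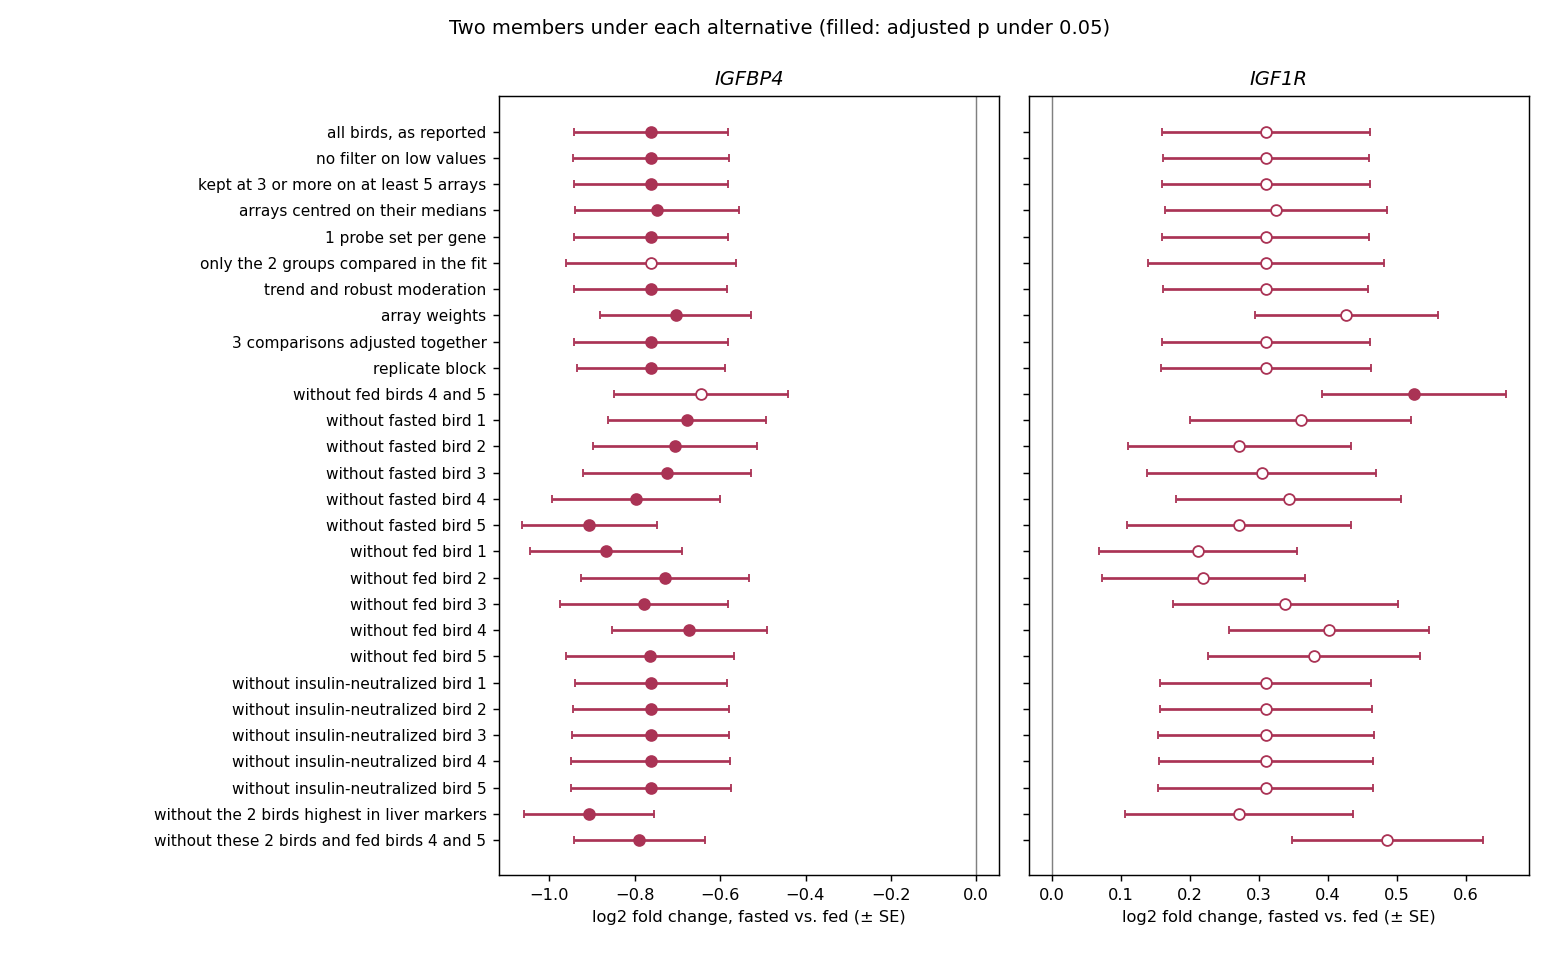
Log2 fold change in fasted vs. fed chickens (x axis, with the SE as bars) of IGFBP4 on the left and IGF1R on the right, for all birds and for each of the 27 alternatives, 1 per line, with different x ranges in the panels. Filled points have an adjusted p under 0.05. IGFBP4 is below 0 throughout, from -0.91 to -0.64, and open in 2 alternatives, while IGF1R is above 0 throughout, from 0.21 to 0.52, and filled only without fed birds 4 and 5.

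Markers of cell types were set beside the change in IGFBP4. Leukocyte, smooth muscle, mesothelial and erythroid markers gave 0 calls of 7, 5, 3 and 2 genes kept in fasted vs. fed chickens. The share over all probe sets was 9.64%. Fed bird 4 had the highest summed mesothelial level of all birds, 14.21 on the log2 scale, and its part was not tested. Skeletal muscle markers, 4 of which were on the array, had a summed level of 9.33 to 9.73 on the log2 scale in fasted birds. In fed birds it was 9.75 to 11.20. These ranges did not overlap, but fasted bird 3 at 9.73 and fed bird 3 at 9.75 lay close together. The sum adds linear signals, so ACTA1, with a mean log2 value of 10.08, set most of it. The means were 6.73 for TNNT3, 3.65 for TNNC2 and 2.27 for MYLPF. Of single probe sets, 8.39% were without overlap in fasted vs. fed chickens, and no such share was taken for sums. The mean of the skeletal muscle markers kept did overlap, with fasted bird 3 above fed bird 3. Of the 4 markers, ACTA1, the skeletal muscle actin, was lower in fasted birds (log2 fold change -1.10, limma adjusted p = 0.0139). TNNT3 was not called, and MYLPF and TNNC2 were removed as low. Their part in the difference in IGFBP4 was not tested. Insulin-neutralized birds had a summed level of 10.20 to 11.36 for these markers, above every fasted bird and overlapping the fed group, with bird 3 above every fed bird. Stromal markers such as the collagens COL1A1 and COL3A1, which mark the cells that make much of the matrix in fat, showed 0 calls among 9 genes kept in each comparison. Over all probe sets 9.64%, 0.494% and 4.06% were called in fasted vs. fed, insulin-neutralized vs. fed and insulin-neutralized vs. fasted chickens. The summed stromal levels were 18.07 to 18.18 in fasted, 18.01 to 18.30 in fed and 18.21 to 18.31 in insulin-neutralized birds. Of 8 endothelial markers kept, 1 was called in fasted vs. fed chickens, against 9.64% over all probe sets. This was CDH5, a cadherin of endothelial junctions, which was 1.36-fold higher (adjusted p = 0.0389). A lower mean in fasted birds was found for 4 of the 8, among them KDR, a receptor for vascular endothelial growth factor. KDR was not called (log2 fold change -0.87, adjusted p = 0.0772). The summed endothelial level was 15.26 to 15.60 in fasted and 14.41 to 15.39 in fed birds, with overlap and lowest in fed bird 4. Of 8 adipocyte markers kept, 2 were called in fasted vs. fed chickens, against 9.64% over all probe sets. PNPLA2, the adipose triglyceride lipase, was higher (1.41-fold, adjusted p = 0.0482) and PPARG, the regulator of adipocyte differentiation, lower (1.76-fold, adjusted p = 0.0193). Their part was likewise not tested.

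Among the 14927 named probe sets compared, those whose values followed IGFBP4 most closely over the 15 arrays were DDR1, a receptor for collagen, with a Pearson r of 0.886, COL5A1, a chain of type V collagen, with 0.870, and RAB9B, a small GTPase, with 0.869. DDR1 was 1.69-fold lower in fasted than in fed chickens and just missed the threshold (adjusted p = 0.0524), RAB9B was called 1.72-fold lower (adjusted p = 0.0279), and COL5A1 was not called (1.16-fold lower, adjusted p = 0.139). When the group means were taken out first, the closest were ACAA1, a peroxisomal thiolase, with an r of 0.880, CCND2, the cell cycle regulator cyclin D2, with 0.869, and PHF20L1 with 0.858. None of these 3 differed by more than 0.25 on the log2 scale in fasted vs. fed chickens, and none was called. The points of each correlation are arrays that share their normalization, and the correlations are a description.

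IGF1R transmits the signal of both ligands. Its probe set read 9.97, 10.00, 10.47, 10.73 and 10.64 in fed birds 1 to 5, and 10.47, 10.82, 10.70, 10.54 and 10.83 in fasted birds 1 to 5. Insulin-neutralized birds 1 to 5 read 10.54, 10.22, 10.42, 10.27 and 10.43. Fed birds 1 and 2 were the lowest of the 15 and fed birds 4 and 5 among the highest, so that the fed group spanned almost the whole range of values and overlapped both others. The mean was 10.36 ± 0.36 in fed, 10.38 ± 0.13 in insulin-neutralized and 10.67 ± 0.16 in fasted chickens (SD, n = 5 each). The difference in fasted vs. fed chickens was 0.31 on the log2 scale (SE 0.15, 95% interval -0.012 to 0.63, limma adjusted p = 0.218). It was 0.017 in insulin-neutralized vs. fed chickens (adjusted p = 0.968) and -0.29 in insulin-neutralized vs. fasted chickens (95% interval -0.62 to 0.028, adjusted p = 0.333).

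Without fed birds 4 and 5, the level of IGF1R in fasted chickens was 1.44-fold that of the fed group (log2 fold change 0.52, SE 0.13) and was called at an adjusted p of 0.0306. The count of called members then stayed at 1, against 8.94% over all probe sets, but the gene called was IGF1R in place of IGFBP4. When fasted bird 5 and insulin-neutralized bird 1 were left out as well, the log2 fold change was 0.49 and the adjusted p 0.0699. In the other 25 alternatives IGF1R was not called, and its adjusted p ran from 0.0306 to 0.428 over all 27.

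IGF2R, the mannose 6-phosphate receptor that carries lysosomal enzymes to their compartment and in mammals also removes IGF2 from the cell surface, had a value of 11.77, 11.90, 11.98, 11.10 and 10.91 in fed birds 1 to 5. It read 11.95, 11.49, 12.12, 11.84 and 11.50 in fasted birds 1 to 5, and 11.96, 11.85, 11.79, 11.72 and 11.70 in insulin-neutralized birds 1 to 5. Fed birds 4 and 5 were the lowest of all 15 birds, and the other fed birds lay within the range of the fasted group. The log2 fold change was 0.25 in fasted vs. fed chickens (SE 0.20, adjusted p = 0.481) and 0.27 in insulin-neutralized vs. fed chickens (SE 0.20, adjusted p = 0.487). Both changed sign without fed birds 4 and 5, to -0.10 and -0.078, and were not called there either. In insulin-neutralized vs. fasted chickens the difference was 0.023 (95% interval -0.41 to 0.46, adjusted p = 0.974).

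Relative to the group means, IGF1R and IGF2R moved in opposite directions among birds, with a Pearson r of -0.639 over the 15 arrays. Fed birds 4 and 5, high in IGF1R and low in IGF2R, contribute to it, and it is given as a description. IGFBP2 and IGFBP5 had the highest positive r of any pair of members, 0.675. Insulin-neutralized bird 4, the lowest of the 15 in both at 8.75 and 7.09, contributes to it. IGF1R and IGFBP7 came next, at 0.619. IGFBP2 and IGFBP5 are direct neighbours in the chicken genome (RefSeq), whereas IGF1R and IGFBP7 are not. Any part of position in these values was not tested. IGFBP1 and IGFBP3 are also neighbours, but IGFBP1 was too low for such a value.

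**Figure D3:**
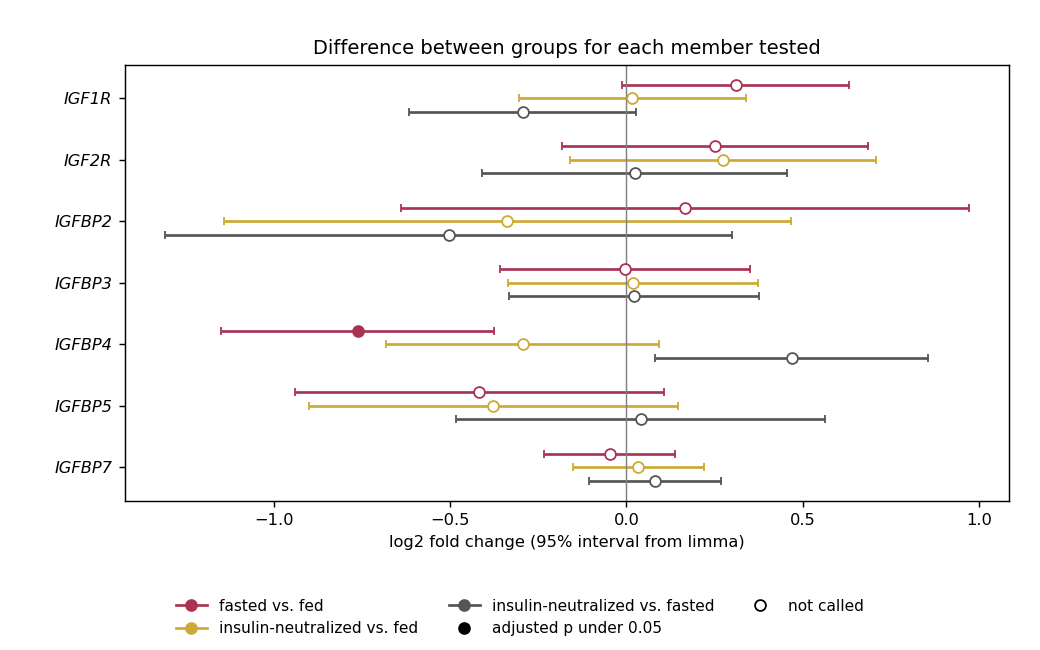
Log2 fold change (x axis) of the 7 members that varied and passed the filter, in fasted vs. fed, insulin-neutralized vs. fed and insulin-neutralized vs. fasted chickens (5 arrays per group), with 95% intervals from limma as bars. The filled point, IGFBP4 in fasted vs. fed chickens at -0.76, is the only one called, and the widest intervals belong to IGFBP2.

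IGFBP2, an abundant binding protein of embryonic and adult tissues, varied the most between birds among the 7 members. Its probe set read 10.06, 9.18, 9.82, 10.31 and 10.60 in fed, 9.60, 9.95, 10.09, 8.75 and 9.90 in insulin-neutralized and 10.86, 9.16, 9.57, 11.00 and 10.21 in fasted birds 1 to 5. The groups overlapped widely, and birds of the fasted group alone differed by up to 1.84. The SD within groups was 0.63 on the log2 scale, at percentile 90.8 of the probe sets kept. The log2 fold changes were 0.17 in fasted vs. fed (95% interval -0.64 to 0.97, adjusted p = 0.831), -0.34 in insulin-neutralized vs. fed (-1.14 to 0.47, adjusted p = 0.662) and -0.50 in insulin-neutralized vs. fasted chickens (-1.31 to 0.30, adjusted p = 0.544). An increase of up to 1.96-fold on fasting lies within the first of these intervals.

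IGFBP5, a binding protein of the extracellular matrix, had lower means in both other groups than in fed birds, and neither difference was called. Its probe set read 8.17, 8.26, 8.17, 8.97 and 8.59 in fed, 8.37, 8.25, 8.46, 7.09 and 8.10 in insulin-neutralized and 7.97, 7.58, 8.08, 8.25 and 8.20 in fasted birds 1 to 5. Fed birds 4 and 5 were the highest of all, and insulin-neutralized bird 4 was the lowest by far. The log2 fold change was -0.42 in fasted vs. fed (SE 0.24, 95% interval -0.94 to 0.11, adjusted p = 0.318) and -0.38 in insulin-neutralized vs. fed chickens (SE 0.24, -0.90 to 0.15, adjusted p = 0.431). Without fed birds 4 and 5 the first was -0.19, and without insulin-neutralized bird 4 the second was -0.14. Insulin-neutralized and fasted birds differed by 0.040 (-0.48 to 0.56, adjusted p = 0.962).

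IGFBP3, the main carrier of IGFs in mammalian blood, and IGFBP7, which binds IGFs only weakly and is a protein of vessel walls and matrix, differed by less than 0.1 on the log2 scale in each comparison. IGFBP3 lay between 6.97 and 7.93 in fed, 7.04 and 7.59 in insulin-neutralized and 7.07 and 7.60 in fasted birds. Its log2 fold changes of -0.0038, 0.018 and 0.021 in fasted vs. fed, insulin-neutralized vs. fed and insulin-neutralized vs. fasted chickens had 95% intervals that reached no further than 0.38 from 0 in either direction. IGFBP7 lay between 14.95 and 15.33 in all 15 birds, and its SD within groups was at percentile 5.96 of the probe sets kept, so that it varied less than most. The highest value of any probe set other than controls was 16.40. Whether a signal this high limited the variation of IGFBP7 was not tested. The differences were -0.048 in fasted vs. fed (95% interval -0.23 to 0.14), 0.033 in insulin-neutralized vs. fed (-0.15 to 0.22) and 0.081 in insulin-neutralized vs. fasted chickens (-0.11 to 0.27), with adjusted p-values of 0.783, 0.871 and 0.704.

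IGFBP1 was at or near the floor in 13 of 15 birds and was removed by the filter, so no test was made. Its probe set read 2.18 in fed birds 1 to 5, and in insulin-neutralized birds it read 4.91 in bird 1 and 2.18 in birds 2 to 5. In fasted birds it read 6.92 in bird 5, 2.42 in bird 2 and 2.18 in the others. High values were therefore found in 1 insulin-neutralized and 1 fasted bird and in no fed bird. These were the birds with the highest levels of all 6 liver markers. ALB, albumin, was at 15.59 in fasted bird 5 and 15.07 in insulin-neutralized bird 1, against 3.31 to 11.55 in the other 13 birds. FGB, a chain of fibrinogen, was at 12.56 and 12.17 in these birds against 2.24 to 7.50 in the others. The summed level of the 6 markers was 16.13 in fasted bird 5 and 15.52 in insulin-neutralized bird 1. It was next highest in insulin-neutralized birds 5 and 4, at 11.90 and 10.30, where IGFBP1 was at 2.18, and it lay between 5.85 and 8.46 in the remaining birds. The part of liver RNA in the IGFBP1 values was not tested. IGF1, which liver also makes, was at the floor of 2.18 in both birds. Of pancreas markers, insulin-neutralized bird 1 also had the highest summed level, 8.17, whereas fasted bird 5 was at 4.21 and fed bird 3 at 7.46.

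**Figure D4:**
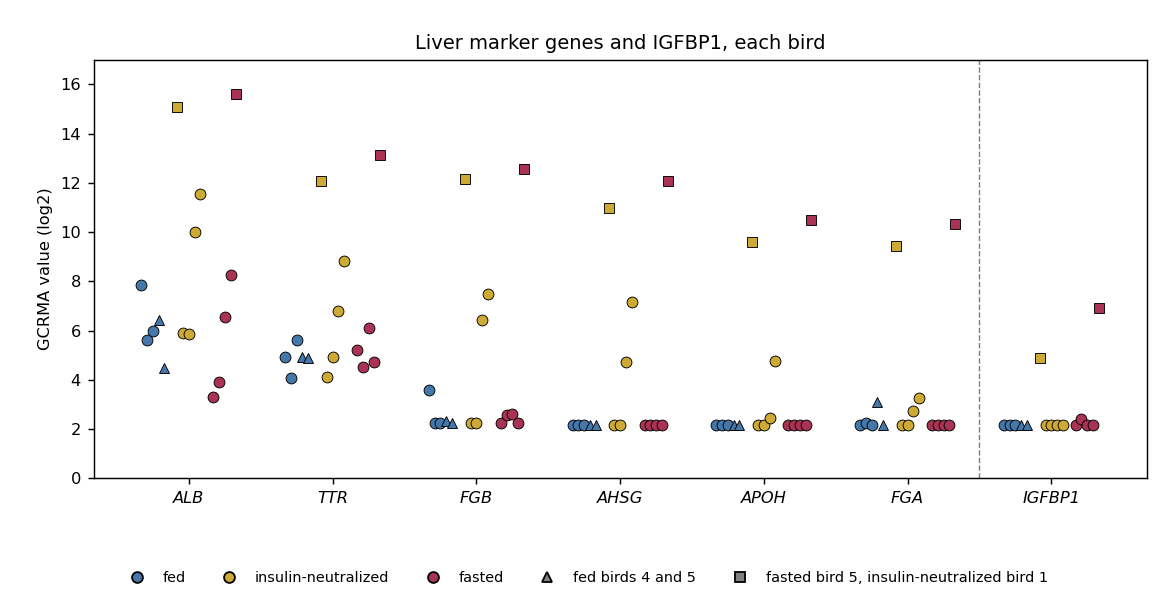
GCRMA values on the log2 scale of 6 liver markers and IGFBP1 in each bird, coloured by group (5 birds each), with squares for fasted bird 5 and insulin-neutralized bird 1 and triangles for fed birds 4 and 5. The squares are the highest values for every gene, and IGFBP1 is above 3 in these 2 birds only, at 6.92 and 4.91.

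The same 2 birds also had the highest IGFBP4 values of their groups, 9.98 in fasted bird 5 and 10.17 in insulin-neutralized bird 1. As given above, the difference between fasted and fed birds in IGFBP4 was larger without them. Leaving out the highest fasted bird enlarges this difference whatever else sets that bird apart. Insulin-neutralized bird 1 enters neither of the means compared. Fasted bird 5 also had the highest value of its group for IGF1R, 10.83, and insulin-neutralized bird 1 for IGF1R and IGF2R, 10.54 and 11.96, whereas for IGFBP2, IGFBP3 and IGFBP5 both lay within their groups.

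Genes that work around the IGF system were described in 5 lists of 84 symbols, several of them synonyms of the same gene. On the array, 65 genes were found under a symbol or synonym. Each was taken from the probe set whose mean over all arrays was highest. The shares over all probe sets given below include unnamed probe sets and several per gene. The lists were chosen with earlier results of these data known, so a list's share above these is a description only. With 1 probe set per gene over the array, 11.5% were called in fasted vs. fed chickens. In insulin-neutralized vs. fed and insulin-neutralized vs. fasted chickens these shares were 0.876% and 4.92%. The summed skeletal muscle marker level given above, set mostly by ACTA1, did not overlap between fasted and fed chickens, whereas the mean of the markers kept did. The part of skeletal muscle RNA in the values of these lists was not tested. In the growth hormone axis 0 of 7 genes tested were called in fasted vs. fed and 0 of 7 in insulin-neutralized vs. fed chickens. The shares over all probe sets were 9.64% and 0.494%. GHR, the growth hormone receptor, differed by 0.43 (SE 0.47, adjusted p = 0.616) in fasted vs. fed chickens. IGFALS, which stabilizes the complex of IGF and binding protein in blood, differed by -0.59 (SE 0.20, adjusted p = 0.0852). In insulin-neutralized vs. fasted chickens 1 of the 7 was called, against 4.06% over all probe sets, namely CISH, an inhibitor of cytokine receptor signalling that growth hormone induces, which was 2.06-fold lower (adjusted p = 0.0382). Against fed birds CISH was 1.92-fold lower in insulin-neutralized birds and not called (adjusted p = 0.121). The call against fasted birds was lost in 12 of 27 alternatives, with adjusted p-values from 0.00627 to 0.189 over all alternatives. Among the 12 were leaving out fasted bird 1, 2, 4 or 5, fed bird 1 or insulin-neutralized bird 1, 3, 4 or 5. The median log2 fold change of this list was -0.21, -0.50 and -0.11 in fasted vs. fed, insulin-neutralized vs. fed and insulin-neutralized vs. fasted chickens.

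Proteases that cleave binding proteins, with their inhibitors, gave 0 calls of 8 in both comparisons with fed birds. Over all probe sets the shares were 9.64% for fasted and 0.494% for insulin-neutralized vs. fed birds. PAPPA, which cleaves IGFBP4, was lower by 0.37 in fasted than in fed chickens (SE 0.20, adjusted p = 0.265) and by 0.32 in insulin-neutralized than in fed chickens (adjusted p = 0.409), neither of them called. Its inhibitors STC1 and STC2 were removed as low. ADAM12, a metalloprotease that cleaves IGFBP3 and IGFBP5, was the 1 gene of 8 called in insulin-neutralized vs. fasted chickens, against 4.06% over all probe sets, with a 1.70-fold higher level in the former (log2 difference 0.76, SE 0.14, adjusted p = 0.00773), a call that held in all 27 alternatives. Its mean was 8.18 ± 0.16 in insulin-neutralized, 7.42 ± 0.34 in fasted and 7.73 ± 0.082 in fed birds (SD, n = 5 each). The list's median was -0.15, -0.048 and 0.13. Of the IGF2 mRNA-binding proteins and partners of the mannose 6-phosphate receptor, 0 of 6 were called in any comparison. The shares over all probe sets were 9.64%, 0.494% and 4.06% in fasted vs. fed, insulin-neutralized vs. fed and insulin-neutralized vs. fasted chickens. The list's medians were -0.063, -0.15 and 0.037 in the same order.

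Of 28 genes of signalling downstream of IGF1R, most of which also serve the insulin receptor, 4 were called higher and 2 lower in fasted vs. fed chickens, which is 21.4% against 9.64% over all probe sets. The list was chosen with earlier results of these data known, and the study itself reported PIK3CB higher and PIK3R1 lower on fasting. The difference in shares is therefore a description only, and it did not hold in every alternative. With only the fed and fasted arrays in the model, 1 of the 28 was called (lower) against 5.16% over all probe sets. Fewer genes were also called without fasted bird 4, 1 higher and 2 lower of 28 against 6.34%. With no filter the list gave 2 higher and 1 lower of 29 against 3.09%. In both of these the list's share remained above that over all probe sets. PIK3CB, a catalytic subunit of phosphoinositide 3-kinase, was 2.27-fold higher (adjusted p = 0.0176). IRS4, an adaptor of the receptors, was 1.49-fold higher (adjusted p = 0.0344). PDPK1, the kinase that activates AKT, and FOXO3, a transcription factor that AKT inhibits, were 1.29-fold and 1.23-fold higher (adjusted p = 0.0219 and 0.0201). The regulatory subunits PIK3R1 and PIK3R3 were 1.51-fold and 1.58-fold lower (adjusted p = 0.0179 and 0.0434). The calls of these genes differed in how far they held. That of PIK3R1 held in all 27 alternatives. That of PIK3CB was lost in 3, among them without fasted bird 4, and those of PDPK1 and FOXO3 in 4 each, among them without fasted bird 2 for PDPK1 and without fasted bird 3 or 4 for FOXO3. IRS4 lost its call in 10, among them without fed bird 1, 3 or 5 and without fasted bird 2, 4 or 5. PIK3R3 lost it in 19, including those without any 1 of the fed birds, without fasted bird 1, 2 or 5 and without insulin-neutralized bird 1, 2, 3 or 5. INSR, the insulin receptor, differed by 0.18 (SE 0.19, adjusted p = 0.597).

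In insulin-neutralized vs. fed chickens 0 of these 28 genes were called, against 0.494% over all probe sets. In insulin-neutralized vs. fasted chickens 3 were called, which is 10.7% against 4.06% over all probe sets. Without fasted bird 5 and insulin-neutralized bird 1 together the count was 0, against 1.8% over all probe sets. With 1 bird left out it was 1 without any 1 of the insulin-neutralized birds, without fed bird 1, 2 or 3 and without fasted bird 1, 4 or 5. In these fits 2.4% to 3.82% of all probe sets were called, so calls were fewer over the whole array too. PIK3R1 was 1.63-fold higher in insulin-neutralized birds (adjusted p = 0.0141), PIK3R3 1.66-fold higher (adjusted p = 0.0445) and FOXO1, a transcription factor that insulin signalling keeps out of the nucleus, 1.47-fold lower (adjusted p = 0.0445). PIK3R1 had a mean of 12.62 ± 0.27 in fed, 12.73 ± 0.21 in insulin-neutralized and 12.03 ± 0.18 in fasted chickens (SD, n = 5 each), so that its low values were those of the fasted group. Its call was lost only in the alternative without fasted bird 5 and insulin-neutralized bird 1, at an adjusted p of 0.0759, the highest of its alternatives, whose lowest was 0.00551. The calls of PIK3R3 and FOXO1 were lost in 16 and 17 alternatives, for both among them every single insulin-neutralized bird, fasted birds 1, 4 and 5 and fed birds 1, 2 and 3, with fasted bird 2 for PIK3R3 and fasted bird 3 for FOXO1. The list's median was 0.052 in fasted vs. fed, 0.079 in insulin-neutralized vs. fed and -0.068 in insulin-neutralized vs. fasted chickens.

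Relatives of the binding proteins share their amino-terminal fold and bind IGFs weakly or not at all. They were listed under 15 symbols, several of them synonyms of the same gene, and 7 genes were on the array. Of these, 3 were called higher in fasted vs. fed chickens and 0 lower, which is 42.9% of 7 genes against 9.64% over all probe sets. CYR61, a matrix protein induced early by growth factors and stretch, was 4.27-fold higher, with a mean of 13.09 ± 0.10 in fasted and 11.00 ± 0.38 in fed birds (SD, n = 5 each, adjusted p = 1.2e-05). CCN2, the connective tissue growth factor, was 2.77-fold higher (13.69 ± 0.29 against 12.22 ± 0.51, adjusted p = 0.00106), and CRIM1, a membrane protein that binds bone morphogenetic proteins, 1.21-fold higher (adjusted p = 0.0280). CYR61 and CCN2 were also higher in fasted than in insulin-neutralized birds, by 2.96-fold and 2.90-fold (adjusted p = 0.000297 and 0.00187), 2 of 7 genes called against 4.06% over all probe sets, and these 4 calls held in all 27 alternatives. In insulin-neutralized vs. fed chickens CYR61 differed by 0.53 (SE 0.18, adjusted p = 0.174) and CCN2 by -0.070 (SE 0.22, adjusted p = 0.897).

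CRIM1 was the 1 gene of this list called in insulin-neutralized vs. fed chickens, against 0.494% over all probe sets, and was 1.42-fold higher (adjusted p = 0.0183), with means of 12.49 ± 0.073 in insulin-neutralized, 12.26 ± 0.11 in fasted and 11.98 ± 0.046 in fed birds (SD, n = 5 each). This call was lost in 6 alternatives, among them without insulin-neutralized bird 1 or 3, with an adjusted p of at most 0.128, and that in fasted vs. fed chickens in 8, among them without fed bird 1 and without fasted bird 1 or 4, with an adjusted p of at most 0.0970. The list's median was -0.018, -0.16 and 0.015 in fasted vs. fed, insulin-neutralized vs. fed and insulin-neutralized vs. fasted chickens. The comparisons share groups, and the values of a gene in them are given side by side only.

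**Figure D5:**
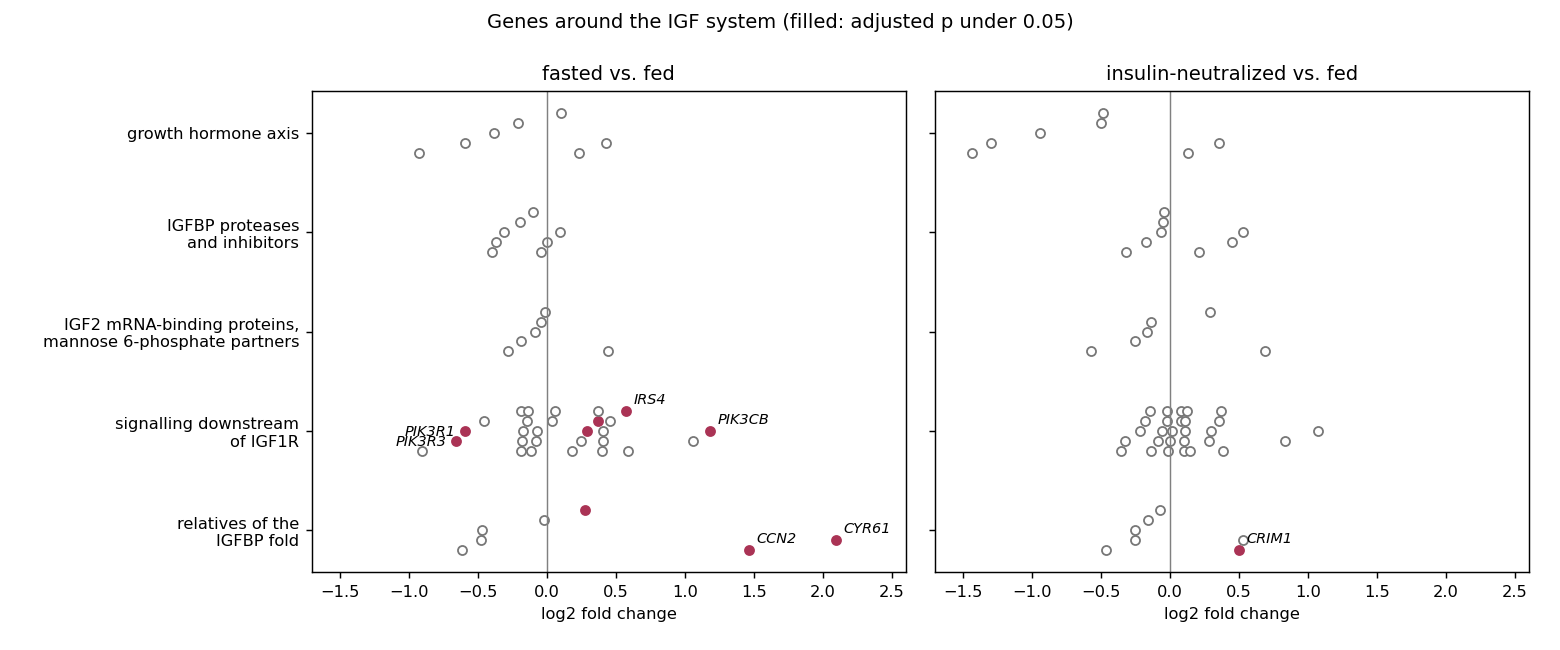
Log2 fold change (x axis) of the genes of the 5 lists around the IGF system, 1 point per gene, in fasted vs. fed chickens on the left and insulin-neutralized vs. fed chickens on the right, spread vertically within a list only to separate points. Filled points have an adjusted p under 0.05, and names are given for those beyond 0.45 in either direction. CYR61 at 2.09 and CCN2 at 1.47 lie farthest to the right in fasted vs. fed chickens, and CRIM1 is the only filled point in insulin-neutralized vs. fed chickens.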

How the data were processed

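The deposited log2 values, 1 per probe set and array, were made by the authors from 15 arrays with GCRMA. Per the labels, R 2.9.0, RMA and GCRMA were used. The labels gave each array its group and bird number. Nothing in the labels pairs birds, and p-values measure the spread between birds. Control probe sets (96) were left out, and 19827 probe sets were removed for values below 3 on at least 5 arrays. The group means were fitted with limma 3.58.1 in R 4.3.3 with 12 residual degrees of freedom. Precision is limited by the number of arrays, with a median SE of 0.18 for a log2 difference. The fit was tested on simulated data with known changes.

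Probe sets were named through the platform annotation, and 27168 had 1 symbol and 177 several. RefSeq genes were used for synonyms and neighbours only. For 4 list genes the synonym led to a probe set of another gene, and they were dropped after their matches were seen. All member probe sets are accounted for. From each list up to 4 called genes were to be named, those with the largest change, and PDPK1, FOXO3, GHR, IGFALS, PAPPA, the stanniocalcins and INSR were named beyond this rule. The members and lists were chosen with earlier results of these data known, and lists are described by counts, with no test. The alternatives were other filters, centring, 1 probe set per gene, other models, array weights, joint adjustment, replicate block and birds left out. The 2 alternatives without the birds highest in liver markers were chosen after seeing the data. Figures were drawn with matplotlib 3.10.9.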

Additional observations from a re-analysis of the deposited data

Results flagged for a closer look

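Within groups of 5 birds, a bird was flagged when its gap to the nearest other bird was over 0.71 of the group's range. With normally distributed values chance does this in about 1 in 20 groups. The rate does not hold where all other birds of a group read the same value, since any deviation then gives a ratio of 1. Of 28 groups of a member with any variation, 8 were flagged. For IGFBP1 the ratio was 1 in insulin-neutralized bird 1, at 4.91 with all others at 2.18, and 0.950 in fasted bird 5, at 6.92 with the next at 2.42. For IGFBP5 it was 0.741 in insulin-neutralized bird 4, at 7.09 with the next at 8.10. The other 5 flags, each with a ratio of 1, were deviations of at most 0.061 on the log2 scale in groups otherwise constant. They were IGF1 in fasted bird 3, each of the 3 probe sets for IGF2 in fasted birds 5, 1 and 2, and IGFBP1 in fed bird 3.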

How the results depend on the processing

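The count of called members in fasted vs. fed birds, 1, fell to 0 when the model held the fed and fasted arrays alone. It was 1 in the other 26 alternatives. With those arrays alone 5.16% of all probe sets were called, against 9.64% in the main fit and 3.09% to 11.7% in the other 26. The counts of 0 in the other comparisons stayed at 0 in all 27. Shares over all probe sets ran from 0.00535% to 2.06% in insulin-neutralized vs. fed birds. In insulin-neutralized vs. fasted birds they ran from 1.21% to 9.61%. With each bird left out in turn the counts stayed at 1, 0 and 0. Over 21 comparisons of a single member, 515 of 567 alternative values kept direction and side of the threshold, 2 lost a call (both IGFBP4), 1 gained one (IGF1R) and 49 changed sign. All of the last were differences that were not called, and the cause was not tested. Other filters, 1 probe set per gene, fitting only the compared groups, another moderation, joint adjustment and the replicate block cannot change a log2 fold change. Nor can leaving out birds of the group not compared. In these settings direction was kept by construction, and only the side of the threshold could change.

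In fasted vs. fed birds, IGF2R turned to -0.10 without fed birds 4 and 5 and to -0.031 when the 2 birds highest in liver markers were also left out. IGFBP3 turned to 0.011 with arrays centred on their medians and to 0.0013 without those 2 birds. IGFBP7 turned to 0.0073 with array weights, 0.022 without fed birds 4 and 5 and 0.024 without all 4. With 1 bird left out, IGFBP2 ran from -0.044 to 0.42 and IGFBP3 from -0.098 to 0.14. In insulin-neutralized vs. fed birds, IGF1R turned to -0.025 without the 2 liver-marker birds, IGF2R to -0.078 without fed birds 4 and 5 and -0.12 without all 4, and IGFBP7 to -0.0012 without the 2. IGFBP3 was -0.13 with array weights, -0.18 without fed birds 4 and 5, -0.0052 without the 2 and -0.20 without all 4. With 1 bird left out, IGF1R ran from -0.082 to 0.11, IGFBP3 from -0.076 to 0.16 and IGFBP7 from -0.012 to 0.073. In insulin-neutralized vs. fasted birds, IGF2R was -0.042 with array weights and -0.086 without the 2 or all 4, and IGFBP3 -0.0065 in both. With 1 bird left out, IGF2R ran from -0.049 to 0.11, IGFBP3 from -0.044 to 0.10 and IGFBP5 from -0.069 to 0.28.

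With the bird number as a block, IGFBP4 in fasted vs. fed birds kept -0.76 (adjusted p = 0.0257 by limma), and the counts of called members were 1, 0 and 0. In the same order of comparisons, 8.26%, 0.043% and 3.43% of all probe sets were called. Among the list genes, the block ended the calls of FOXO3 and CRIM1 in fasted vs. fed birds (adjusted p = 0.0565 and 0.0625), of CRIM1 in insulin-neutralized vs. fed birds (0.0762) and of CISH and FOXO1 in insulin-neutralized vs. fasted birds (0.0660 and 0.0905). The labels give same-numbered birds a shared number and do not say whether they share anything else. Their deviations from the group means correlated at -0.392 to 0.382 over 15 pairs, 7 of them over 0.1. The median r was 0.098, against 0.014 for pairs from different groups with different numbers. Of 15 birds, 5 correlated best with a bird of their own number.

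With 5 arrays per group, a signal near the floor gave no measure for IGF1 and IGFBP1 and none of variation for IGF2. Intervals for IGFBP2 were the widest.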
